A study of Rattus norvegicus with 24 samples.

Results

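The genes described here encode the proteasome, the protease that degrades ubiquitin-tagged proteins, together with its activators, its inhibitor and the chaperones that assemble it. They were taken as every gene symbol of the transcript table that starts with Psma to Psmg followed by a digit, and the values of a gene's transcripts were summed. The rule found 48 genes with 58 transcripts among 15273 genes with 20027 transcripts. Of the 48 genes, 46 are proteasome genes by function and 2, Psmc3ip and Psme3ip1, match the rule by name only. Psma3l is listed by RefSeq under the same gene as Psma3 and was counted with the alpha ring. Psma3 itself, the testis subunit Psma8 and the thymus subunit Psmb11 have no row of their own in the table and were not analysed here.

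The muscles came from 12 adult male Wistar rats, 3 for each of 2, 10, 20 and 30 days of daily training, numbered 1 to 3 within each day. In every rat the left tibialis anterior, a fast ankle dorsiflexor, was loaded by an implanted pulse generator whose stimulation also recruited the opposing plantarflexors (the "SpillOver" method), and the right tibialis anterior of the same rat was left unstimulated. Both muscles were taken 1 h after the last session, so a difference between them holds the response to that session as well as to the days of training, and the 2 cannot be told apart. Every rat carried an implant and no muscle of a rat without one was used here, so each control is the opposite leg of a trained rat. The 24 muscles gave 1 poly-A RNA library each, and 3 trained muscles at each day were compared with all 12 contralateral muscles, with the fit that sets each muscle against the opposite leg of its own rat as the alternative. Levels are called TPM here, the unit the values were taken to have, and were rescaled between muscles. TPM sets each transcript against its length and the total of its muscle. Whether the values were divided by length is not known, so comparisons between genes, sums and ratios rest on that reading. Each difference is on the scale of log2(level + 1), where low genes show less of their change. The read depth behind the values is unknown, because the deposited values of all 24 muscles sum to the same total.

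The proteasome is built from a core particle and caps that sit on its ends. The core is a barrel of alpha rings, which gate the entrance, and beta rings, of which the subunits encoded by Psmb5, Psmb6 and Psmb7 cut peptide bonds. Interferon induces Psmb8, Psmb9 and Psmb10, which take the places of Psmb5, Psmb6 and Psmb7 in newly assembled cores and so form the immunoproteasome. The regulatory cap recognises ubiquitin, unfolds the substrate with a ring of ATPases (Psmc genes) and removes the ubiquitin chain in a lid of non-ATPase subunits (Psmd genes). In skeletal muscle the proteasome degrades contractile proteins during wasting, and it also takes part in the turnover that accompanies growth.

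The upstream sequences of 4 genes on which the results turn are shown here, since the immunoproteasome genes are known interferon targets and Psmd11 had the largest rise. Each runs 5′ to 3′ on the strand of the gene and holds the 250 bases before the start of transcription in RefSeq's GRCr8 assembly. Capitals mark a match to any of 5 motifs, searched on both strands: TGACNNNGC (antioxidant response element core), GAANNTTC (heat shock element core), CACGTG (E-box), TTCNNNGAA (gamma-activated site) and the interferon-stimulated response element core, GAAA repeated after a gap of 2 bases. The windows are chr10:65932093-65932342 on the plus strand for Psmd11, chr20:4657032-4657281 on the minus strand for Psmb8, chr20:4668750-4668999 on the plus strand for Psmb9 and chr19:50743293-50743542 on the minus strand for Psmb10.
Psmd11: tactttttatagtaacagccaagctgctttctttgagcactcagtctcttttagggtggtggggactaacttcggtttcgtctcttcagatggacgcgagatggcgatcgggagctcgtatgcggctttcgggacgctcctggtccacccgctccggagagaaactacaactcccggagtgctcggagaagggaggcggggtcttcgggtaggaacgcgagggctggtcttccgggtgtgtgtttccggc
Psmb8: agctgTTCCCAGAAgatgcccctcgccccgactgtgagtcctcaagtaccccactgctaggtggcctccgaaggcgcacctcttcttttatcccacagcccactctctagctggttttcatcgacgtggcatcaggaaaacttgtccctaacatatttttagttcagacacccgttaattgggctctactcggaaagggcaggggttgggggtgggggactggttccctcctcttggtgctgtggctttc
Psmb9: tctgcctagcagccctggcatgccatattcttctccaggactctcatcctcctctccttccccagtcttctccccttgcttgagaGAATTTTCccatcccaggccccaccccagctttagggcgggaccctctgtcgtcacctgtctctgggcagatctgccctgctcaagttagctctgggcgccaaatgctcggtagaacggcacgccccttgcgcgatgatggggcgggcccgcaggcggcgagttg
Psmb10: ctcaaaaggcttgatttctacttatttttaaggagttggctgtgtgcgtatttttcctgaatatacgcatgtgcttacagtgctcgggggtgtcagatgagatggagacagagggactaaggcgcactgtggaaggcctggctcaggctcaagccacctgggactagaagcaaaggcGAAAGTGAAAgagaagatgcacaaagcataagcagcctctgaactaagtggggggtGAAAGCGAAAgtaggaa

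Psmb10 held a pair of matches to the interferon-stimulated response element core, GAAAGTGAAA and GAAAGCGAAA, at 73 to 64 and at 17 to 8 bases before the start. In Psmb8 a match to TTCNNNGAA lay 245 to 237 bases before the start. Its match to the interferon-stimulated response element core did not lie wholly within the printed bases and is not marked. That match reached into the 50 bases after the start, which are not printed. Psmb9 held a match to GAANNTTC at 165 to 158 bases before the start, and the windows of Psmd11, Psmd5 and Psmd8 held no match to any of these letters. A promoter of 300 bases, 250 before and 50 after the start, was found for 44 of the 48 genes, and not for Psma7, Psmd6, Psmd12 and Psmd14. The interferon-stimulated response element core was in 15.9% of these promoters (7 of 44) and in 3.77% of all 27457 promoters of the same length. Of the 9 genes with a promoter that were higher after 2 days of training, 1 held this core. TGACNNNGC was in 18.2% against 12.2%, CACGTG in 13.6% against 6.65%, TTCNNNGAA in 9.09% against 8.68% and GAANNTTC in 6.82% against 8.34%. These are matches of letters, and no binding was measured.

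All 48 genes passed the filter for low values, a level of at least 1 in at least 3 muscles, which 11196 of all genes passed. In the 12 contralateral muscles the core subunits were among the most abundant members: the median level was 106 TPM for Psma7, the highest of the alpha ring, and 149 TPM for Psmb7, the highest of the beta ring. The lowest of these rings were Psma3l at 15.3 TPM and Psmb6 at 28.7 TPM. In the cap, the ATPases ranged from 31.9 TPM (Psmc6) to 94.8 TPM (Psmc5) and the non-ATPase subunits from 25.1 TPM (Psmd14, the enzyme that removes ubiquitin chains) to 90.9 TPM (Psmd2, a receptor for ubiquitin-like domains). The immunoproteasome genes were far lower, with medians of 1.47 TPM for Psmb8, 2.15 TPM for Psmb9 and 3.95 TPM for Psmb10. The cap chaperones ranged from 6.68 TPM (Psmd10) to 8.69 TPM (Psmd5), the core chaperones from 8.46 TPM (Psmg2) to 21.2 TPM (Psmg1), and the activators from 4.75 TPM (Psme2) to 35.1 TPM (Psme4), and the inhibitor Psmf1 stood at 11.7 TPM.

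The contralateral muscles varied little in these genes. The coefficient of variation over the 12 muscles had a median of 9.94% over the 48 genes, against 17.5% over all genes tested, which were not matched to them for level. It was lowest for the activator Psme3 (5.47%) and highest for Psmb8 (37.6%), Psmb9 (27.0%) and Psmb10 (23.2%), whose levels were also the lowest. None of the 48 genes passed a test of differences between days among the contralateral muscles (limma F test over 4 days, lowest adjusted p = 0.658, with 0 genes at an unadjusted p under 0.05 and 0.152% of all genes tested past the threshold).

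After 2 days of training, 10 of the 48 genes were higher than in the contralateral muscles and 0 were lower, at an adjusted p under 0.05 by limma. Over all genes tested 28.9% passed, 15.4% higher and 13.5% lower, so the share of proteasome genes that rose (20.8%) lay near the background for that direction while the share that fell was 0. That reading holds for the rescaled values. On the values as deposited and in the authors' gene-level table, a larger share of these genes than of all genes passed. The genes that rose were mostly of the regulatory cap: 6 of 11 non-ATPase subunits (Psmd11, Psmd8, Psmd3, Psmd4, Psmd14, Psmd13), 1 of 6 ATPases (Psmc4) and the cap chaperone Psmd5. The other 2 were the immunoproteasome gene Psmb10 and the nuclear activator Psme3. No subunit of the alpha ring (0 of 7) or of the constitutive beta ring (0 of 7) passed, and 4 core chaperones, Psmg1 to Psmg4, did not pass either.

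**Figure D1:**
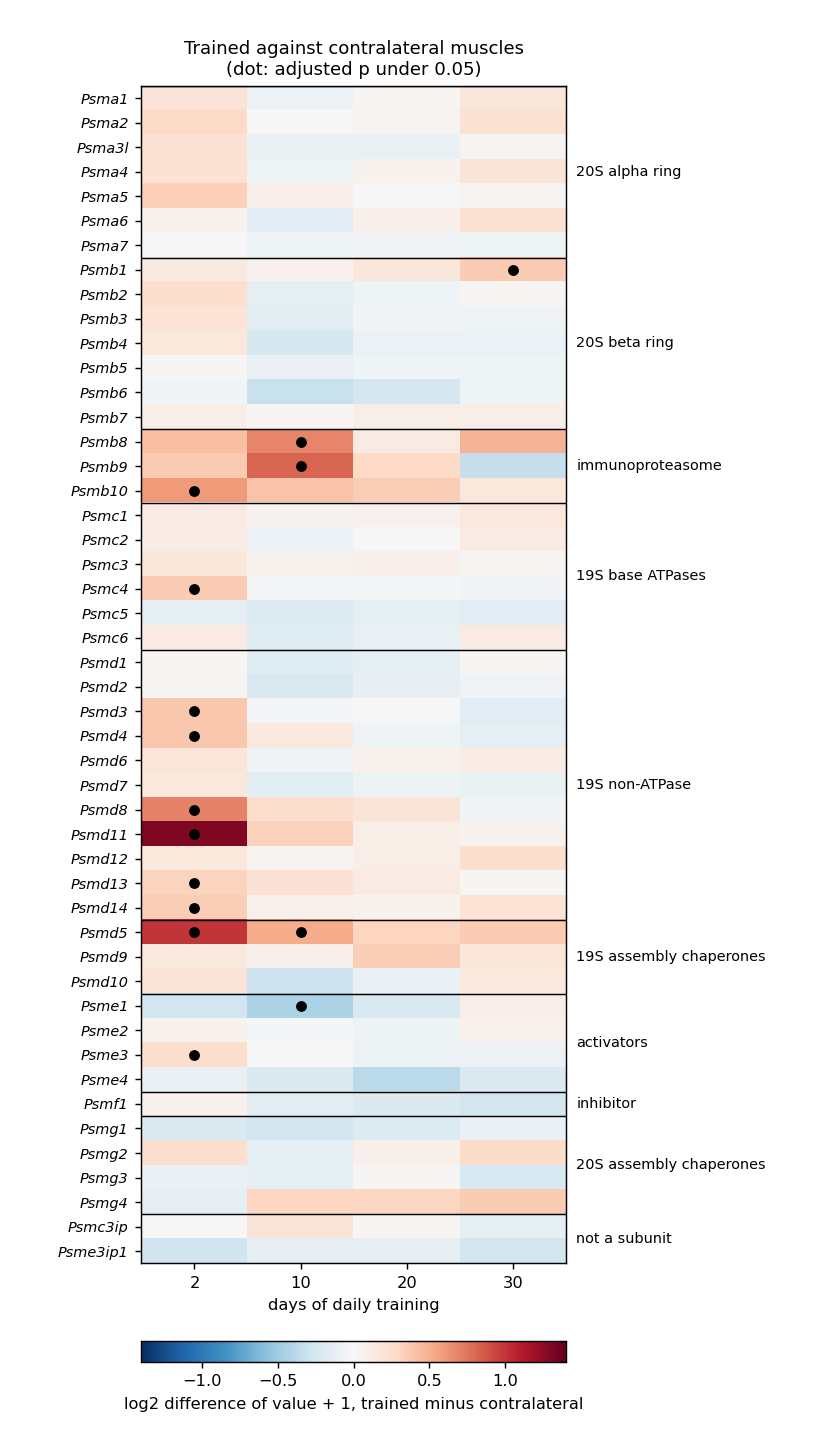
Log2 difference between trained and contralateral muscles for each of the 48 genes (rows, grouped by role) at 2, 10, 20 and 30 days (columns), with a dot where the adjusted p was under 0.05. Dots fall on 10 genes at 2 days, mostly in the non-ATPase group, on 4 genes at 10 days, on 0 at 20 days and on Psmb1 at 30 days.

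The differences as a whole were small outside a few genes. The median log2 difference at 2 days was 0.15 over the 48 genes and -0.01 over all genes tested, and 38 of 48 lay above 0. It was 0.32 over the non-ATPase subunits, all 11 of which lay above 0, and 0.11 over the ATPases. The alpha ring had a median of 0.20, the beta ring 0.13, the core chaperones -0.11 and the activators -0.03. Whether the cap differed from the core was not tested.

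Psmd11, a lid subunit that holds the cap to the core, showed the largest rise. Its gene (ENSRNOG00000005538) lies on chromosome 10 of rn6. The level was 51.3, 113 and 93.1 TPM in the 3 muscles trained for 2 days, against 28.5, 31.6 and 36.7 TPM as the lowest, median and highest of the 12 contralateral muscles. All 3 trained muscles lay above every contralateral muscle, and the right legs of the same rats read 28.5, 30.0 and 30.4 TPM. The mean was 85.9 ± 31.6 TPM (SD, n = 3) against 32.4 ± 2.66 TPM (SD, n = 12), a log2 difference of 1.31 (SE 0.15, adjusted p = 3.59e-07 by limma).

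Psmd5, a chaperone that helps to build the ATPase ring and leaves the finished cap, lies at chr3:13916203-13933658 on the minus strand of rn6 (ENSRNOG00000018809). It read 11.4, 25.7 and 19.6 TPM after 2 days, with contralateral levels of 6.76, 8.69 and 10.2 TPM (lowest, median, highest). All 3 trained muscles again lay above the contralateral range, and the log2 difference was 1.00 (SE 0.16, adjusted p = 3.75e-05 by limma). Psmd8, a lid subunit at chr1:88116812-88123643 on the minus strand (ENSRNOG00000037580), read 40.8, 59.6 and 50.1 TPM against 28.5, 29.8 and 34.8 TPM. Its log2 difference was 0.69 (SE 0.11, adjusted p = 4.48e-05 by limma), and the groups did not overlap. In all 3 genes the muscle of rat 1 showed the smallest rise: against its own right leg the log2 difference of Psmd11 was 0.83, 1.88 and 1.58 in rats 1, 2 and 3, that of Psmd5 0.32, 1.38 and 1.34, and that of Psmd8 0.36, 0.76 and 0.77.

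**Figure D2:**
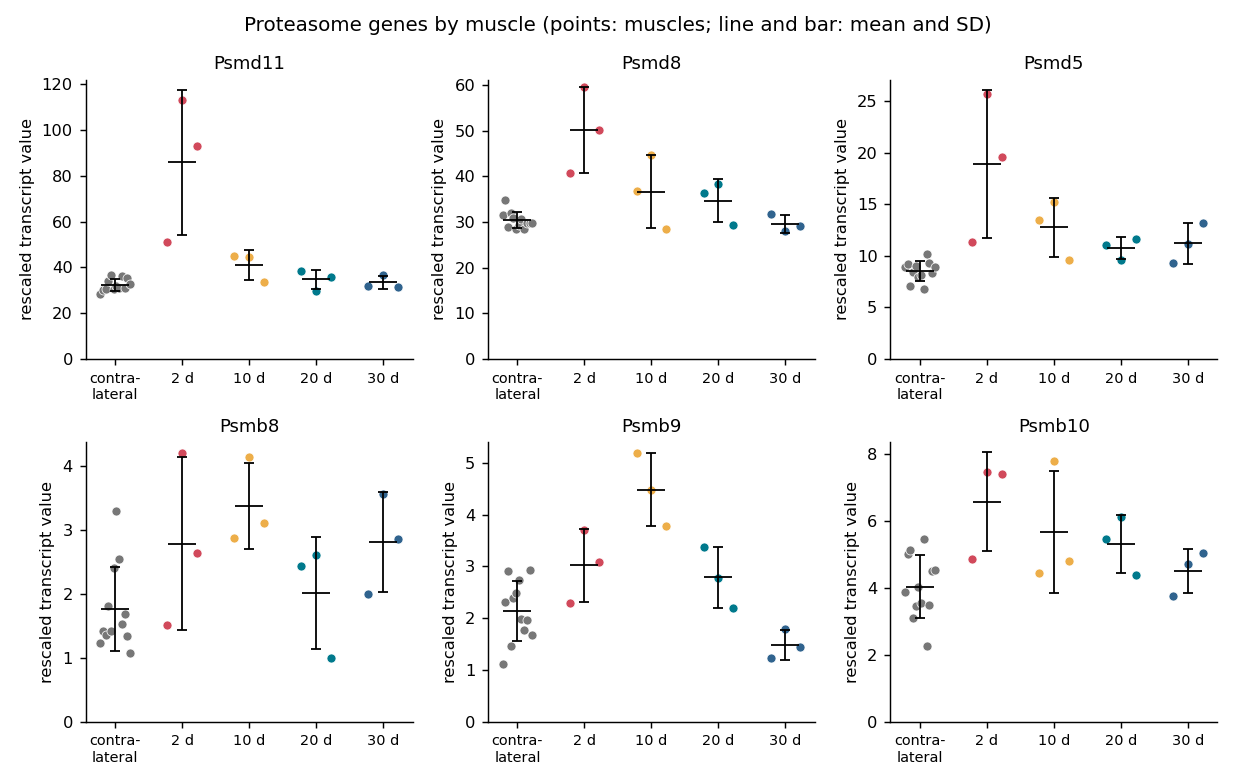
Levels in rescaled TPM of Psmd11, Psmd8, Psmd5, Psmb8, Psmb9 and Psmb10 in each of the 24 muscles (points), by group, with the mean and SD of each group. Psmd11, Psmd8 and Psmd5 stand above all 12 contralateral muscles at 2 days, and Psmb9 stands above them at 10 days.

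The other cap genes rose less. Psmd3, a structural lid subunit, read 48.2, 62.5 and 60.1 TPM after 2 days against 38.4, 43.7 and 47.8 TPM, a log2 difference of 0.38 (SE 0.10, adjusted p = 0.0039 by limma). Psmd4, a receptor for ubiquitin chains, read 65.3, 67.6 and 72.9 TPM against 47.4, 51.7 and 61.9 TPM, a log2 difference of 0.37 (SE 0.11, adjusted p = 0.0111 by limma). Both genes were above the contralateral range in all 3 muscles. Psmd14, the ubiquitin-removing enzyme of the lid, read 30.9, 32.5 and 35.8 TPM against 23.02, 25.1 and 30.2 TPM, a log2 difference of 0.34 (SE 0.10, adjusted p = 0.0145 by limma). The ATPase gene Psmc4 (0.36, SE 0.10, adjusted p = 0.00804) and the lid gene Psmd13 (0.32, SE 0.09, adjusted p = 0.0122) rose by like amounts by limma but overlapped the contralateral muscles, since their lowest trained muscles read 47.6 and 53.4 TPM and the highest contralateral muscles 47.9 and 54.6 TPM. Psme3, which encodes a nuclear activator that opens the core without ubiquitin, read 14.7, 14.7 and 15.2 TPM against 11.6, 12.3 and 13.8 TPM, a log2 difference of 0.25 (SE 0.08, adjusted p = 0.0285 by limma). In all, 7 of the 48 genes lay above all 12 contralateral muscles in all 3 trained muscles and 0 below, where 8.57% and 6.18% of all genes tested did.

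Of the 10 genes, Psmd11, Psmd5, Psmd8, Psmd4 and Psmd14 kept their calls when each trained muscle was set against its own right leg (the replicate block). Psmd3 (adjusted p = 0.0719 by limma), Psmb10 (0.0677), Psmc4 (0.132), Psmd13 (0.167) and Psme3 (0.269) did not, and Psmb8 then passed (log2 difference 0.63, adjusted p = 0.0393). With the right legs of the same day as controls and no block, neither Psmd4 (0.0816) nor Psmb8 (0.0812) passed. Under that block 21.6% of all genes tested passed. The muscle of rat 2 decided much of the count: without it 3 genes passed, Psmd11, Psmd5 and Psmd8, with adjusted p-values by limma of 0.0522 for Psmd4, 0.0616 for Psmd14, 0.0684 for Psmd3, 0.0969 for Psmc4, 0.101 for Psme3, 0.110 for Psmb10 and 0.131 for Psmd13. Without the muscle of rat 3, 5 genes passed, with adjusted p-values of 0.0610 for Psmd13, 0.0773 for Psmd4, 0.0841 for Psmb10, 0.108 for Psmd14 and 0.110 for Psme3, and without the muscle of rat 1 Psme3 alone was lost (0.0562).

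Psmd11 has 2 transcripts in the table, on the plus strand of chromosome 10 in rn6: Psmd11-201 from 67810655 to 67857223 and Psmd11-202 from 67810810 to 67856328. Psmd11-202 read 32.7, 81.9 and 64.0 TPM after 2 days and 12.5 to 22.7 TPM in the contralateral muscles, a log2 difference of 1.69 (SE 0.19, adjusted p = 9.99e-07 by limma over all transcripts). Psmd11-201 read 18.6, 31.3 and 29.1 TPM against 12.7 to 19.2 TPM, a log2 difference of 0.69 (SE 0.13, adjusted p = 5.00e-04 by limma over all transcripts). Both transcripts rose. The share of the gene's level in Psmd11-202 was 63.8%, 72.3% and 68.8% after 2 days and 41.8% to 64.1% in the contralateral muscles, with a median of 50.6%, so the muscle of rat 1 lay within that range and the others above it. At 10 days the share was 54.3%, 48.4% and 47.1%. The 2 transcripts overlap, their split is an estimate of the authors' quantification, and the share was not tested.

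**Figure D3:**
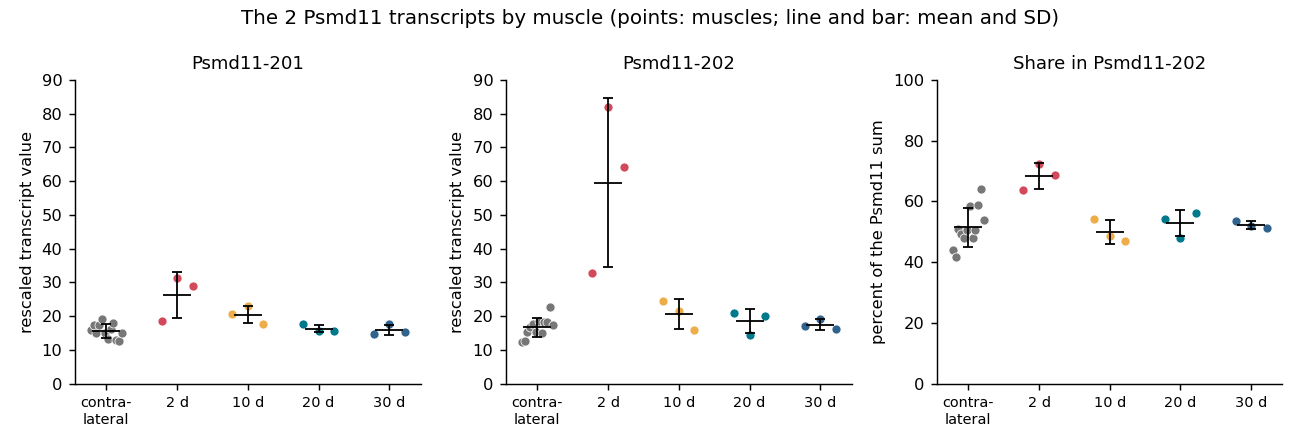
Levels of Psmd11-201 and Psmd11-202 in rescaled TPM and the percent of the gene's level in Psmd11-202, for each muscle by group, with the mean and SD. At 2 days both transcripts are raised, and 2 of 3 trained muscles have a share in Psmd11-202 above all 12 contralateral muscles.

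After 10 days of training, 3 of the 48 genes were higher and 1 was lower by limma (8.33% of the genes, against 28.9% of all genes tested, 15.6% higher and 13.3% lower). Those that rose were the immunoproteasome genes Psmb9 and Psmb8 and the chaperone Psmd5, and Psme1 fell. The median log2 difference was -0.05 over the 48 genes and -0.03 over all genes tested, and 20 of 48 lay above 0.

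Psmb9 (chr20:3973420-3978845, minus strand of rn6, ENSRNOG00000000459) read 5.19, 4.48 and 3.78 TPM after 10 days, against 1.12, 2.15 and 2.93 TPM in the contralateral muscles (lowest, median, highest). The groups did not overlap, with means of 4.48 ± 0.703 TPM (SD, n = 3) and 2.14 ± 0.579 TPM (SD, n = 12), and the log2 difference was 0.82 (SE 0.16, adjusted p = 3.02e-04 by limma). Psmb8 lies close by on the plus strand (chr20:3990820-3993769, ENSRNOG00000000456), and its 3 transcripts together read 2.87, 4.14 and 3.11 TPM against 1.08, 1.47 and 3.30 TPM. Its muscles overlapped the contralateral range, and the log2 difference was 0.69 (SE 0.21, adjusted p = 0.0164 by limma). Psmb10 (chr19:37909546-37912027, minus strand, ENSRNOG00000019494) read 4.44, 7.77 and 4.79 TPM against 2.25, 3.95 and 5.46 TPM, with a log2 difference of 0.40 that did not pass (SE 0.17, adjusted p = 0.0849 by limma). It was past the threshold at 2 days, where it read 4.86, 7.44 and 7.41 TPM (log2 difference 0.59, SE 0.17, adjusted p = 0.011 by limma), and the 2-day muscles of Psmb8 (1.51, 4.21 and 2.64 TPM) and Psmb9 (2.30, 3.70 and 3.08 TPM) did not pass (adjusted p = 0.135 and 0.0837 by limma).

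Psmd5 still read 13.5, 15.2 and 9.60 TPM at 10 days (log2 difference 0.51, SE 0.16, adjusted p = 0.0157 by limma), with 2 of 3 muscles above every contralateral muscle. Psmd11 read 45.0, 44.4 and 33.6 TPM, and its log2 difference of 0.32 did not pass (adjusted p = 0.102 by limma). Psme1, which forms with Psme2 the activator that interferon induces alongside the immunoproteasome, read 22.1, 20.5 and 17.1 TPM against 21.2, 27.9 and 36.4 TPM. Its log2 difference was -0.44 (SE 0.14, adjusted p = 0.0223 by limma), and the muscle of rat 1 lay within the contralateral range. Psme1 was lower than in the own right leg in all 3 rats, by log2 differences of -0.34, -0.46 and -0.31. Its partner Psme2 read a mean of 4.45 ± 0.508 TPM (SD, n = 3) at 10 days and 4.62 ± 0.957 TPM (SD, n = 12) in the contralateral muscles.

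With each muscle set against its own right leg (the replicate block), Psmb9 kept its call at 10 days (log2 difference 0.83, adjusted p = 0.00263 by limma) and Psmb10 gained one (0.53, adjusted p = 0.0216), while Psmb8 (0.61, adjusted p = 0.05002, just over the threshold), Psmd5 (0.52, adjusted p = 0.0658) and Psme1 (-0.37, adjusted p = 0.167) lost theirs, where 20.1% of all genes tested passed. With the right legs of the same day and no block, Psmb9 passed (adjusted p = 0.00825 by limma) and Psmb10 did not (0.0955). Leaving out 1 trained 10-day muscle raised the adjusted p by limma of Psmb8 to 0.115 (without rat 2), of Psmd5 to 0.0907 and 0.141 (without rat 1 or 2) and of Psme1 to 0.0556 and 0.151 (without rat 2 or 3). Of these 4, Psmb9 kept its call under each left-out muscle. At 10 days Psmb9 alone lay above all 12 contralateral muscles in all 3 trained muscles and the core chaperone Psmg1 alone below (17.2, 19.2 and 18.8 TPM against 19.8 TPM or more), where 10% and 8.15% of all genes tested did.

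After 20 days, 0 of the 48 genes passed in either direction by limma, where 21.4% of all genes tested did (11.7% higher, 9.64% lower), and 2 had an unadjusted p under 0.05. These were the cap chaperone Psmd9 (log2 difference 0.34, adjusted p = 0.108) and the activator Psme4 (-0.38, adjusted p = 0.0505), which read 25.02, 21.4 and 32.2 TPM against 24.8, 35.1 and 39.1 TPM. Psme4 passed under 2 other settings and 9 of the leave-outs of a single muscle. Psmd11 (38.4, 29.9 and 35.9 TPM), Psmd8 (36.5, 38.3 and 29.3 TPM) and Psmd5 (11.02, 9.59 and 11.6 TPM) all had muscles within the contralateral range.

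After 30 days, 1 gene was higher and 0 lower (2.08% of the 48, against 20.6% of all genes tested, 11.1% higher and 9.46% lower). This was Psmb1, a beta ring subunit without a proteolytic site, which read 115, 134 and 128 TPM against 84.0, 99.9 and 120 TPM (log2 difference 0.36, SE 0.10, adjusted p = 0.013 by limma). The muscle of rat 1 lay within the contralateral range. Psmb1 did not pass against the own right leg (0.30, adjusted p = 0.174 by limma under the replicate block), nor without the muscle of rat 2 (0.0934) or rat 3 (0.0635). Under that block Psmb8 (0.67, adjusted p = 0.0456 by limma), the core chaperone Psmg2 (0.46, adjusted p = 0.0441) and, lower, the inhibitor Psmf1 (-0.43, adjusted p = 0.0435) passed instead, where 12.3% of all genes tested did. With the right legs of the same day and no block, Psmf1 passed (adjusted p = 0.0263 by limma) and Psmb8 (0.0959) and Psmg2 (0.0896) did not. Psmf1 read 10.6, 10.2 and 8.11 TPM in the trained muscles and 14.2, 12.2 and 13.6 TPM in the right legs of the same rats. By range, 0 genes lay above all 12 contralateral muscles and the ATPase gene Psmc5 lay just below (88.3, 85.8 and 85.2 TPM against 88.6 TPM or more), where 7.48% and 6.08% of all genes tested did, and its log2 difference of -0.15 did not pass (adjusted p = 0.198 by limma). No gene of the 48 passed in the same direction at all 4 days.

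At 30 days the direction also depends on how muscles are put on a common scale. With the values as deposited, 15 of the 48 genes were lower and 0 higher, where 28.7% of all genes passed (5.74% higher, 23% lower), and the median log2 difference was -0.18 over the 48 genes and -0.18 over all genes tested, against 0.03 and -0.01 after rescaling. In the authors' gene-level table, which holds 38 of the 48, 28 were lower, 65.9% of its genes passed (2.98% higher, 63% lower), and the medians were -0.32 and -0.35. Psmb1 read 0.14 on the deposited values (adjusted p = 0.269 by limma) and -0.081 in the gene-level table, so its rise is relative to the shift of all genes.

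**Figure D4:**
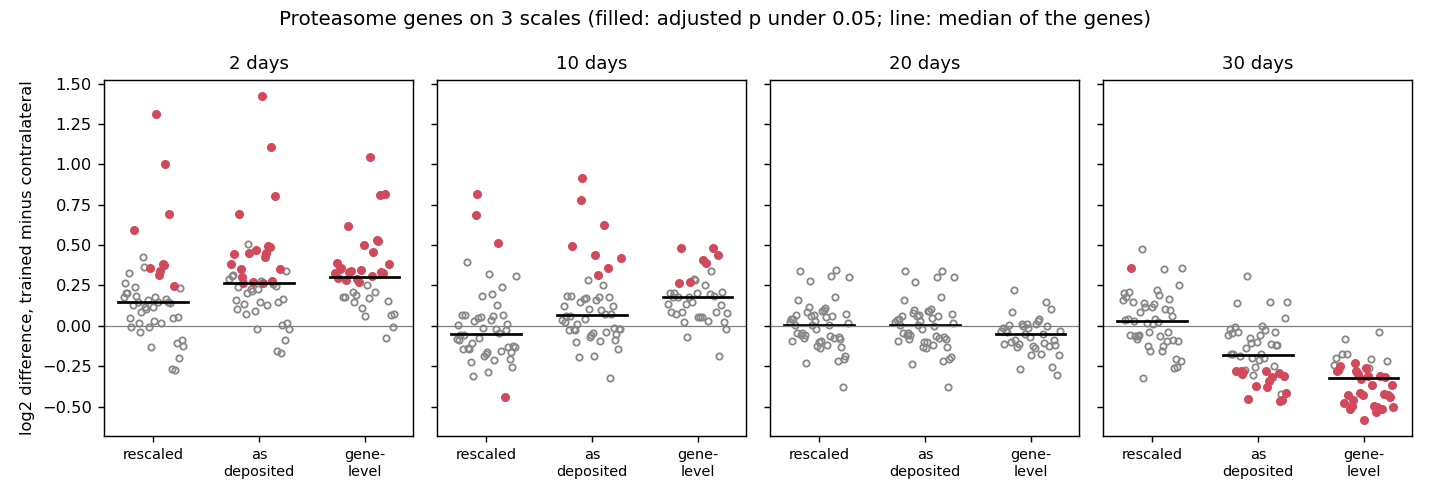
Log2 difference of each gene (points, filled where the adjusted p was under 0.05) at 2, 10, 20 and 30 days on 3 scales, rescaled TPM, TPM as deposited and the authors' gene-level table, with a line at the median of the genes. At 30 days the median moves from 0.03 to -0.18 and -0.32 between the scales.

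The trained muscles were also compared with each other, by log2 differences in which the contralateral levels do not enter. The SEs and p-values do involve the contralateral muscles, since the same fit takes the spread of a gene over all groups. For Psmd11 the levels ran from 51.3 to 113 TPM at 2 days and from 28.5 to 36.7 TPM in the contralateral muscles. The shared SE does not show that wider spread among the 2-day muscles. At 10 days Psmd11 was lower than at 2 days (log2 difference -0.99, SE 0.19, adjusted p = 0.00534 by limma), the only gene of the 48 past the threshold, where 1.93% of all genes tested passed and 0.849% were lower. Between 10 and 20 days and between 20 and 30 days 0 of 48 passed by limma (0.17% and 0.0357% of all genes tested), with 2 and 1 genes at an unadjusted p under 0.05. From 2 to 30 days 8 genes were lower and 0 higher (16.7% of the 48, against 15% of all genes tested, 7.07% higher and 7.91% lower). They were the cap genes Psmd11 (-1.26, adjusted p = 9.24e-05), Psmd8 (-0.73, 0.00113), Psmd3 (-0.54, 0.0037), Psmd4 (-0.50, 0.0154) and Psmc4 (-0.39, 0.0332), the chaperone Psmd5 (-0.65, 0.029), Psmb9 (-0.69, 0.0201) and Psme3 (-0.33, 0.0339), each with its log2 difference and adjusted p by limma.

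By 30 days Psmd11 read 32.1, 36.9 and 31.4 TPM and Psmd8 at 31.8, 28.01 and 29.0 TPM, within 1 TPM of their contralateral ranges or inside them. Psmb9 read 1.22, 1.79 and 1.44 TPM, all under the contralateral median of 2.15 TPM, though its difference from the contralateral muscles did not pass (-0.32, adjusted p = 0.150 by limma). The replicate block compares another quantity, the difference from the own right leg at 30 days against that at 2 days. There Psmd11 alone of the 8 passed (-1.42, adjusted p = 0.00927 by limma, 2.8% of all genes past the threshold), and the others had adjusted p-values by limma from 0.0752 (Psmd8) to 0.503 (Psme3), and the 10 against 2 day contrast of Psmd11 had 0.073 (0.0625% of all genes past the threshold). Leaving out the 2-day muscle of rat 2 or of rat 3 left Psmd11, Psmd3 and Psmd8 from 2 to 30 days. Without that of rat 2 the 10 against 2 day contrast of Psmd11 had an adjusted p of 0.0504 by limma (log2 difference -0.75) and 0 genes passed, and without that of rat 1 5 did.

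The immunoproteasome genes can be read against the constitutive subunits whose places they take, as a ratio within a muscle that no rescaling alters. Psmb5 (contralateral lowest, median and highest of 101, 109 and 141 TPM) and Psmb7 (135, 149 and 173 TPM) did not pass at any day, and Psmb6 (23.4, 28.7 and 35.5 TPM) read 22.8, 22.5 and 24.4 TPM at 10 days (log2 difference -0.31, adjusted p = 0.092 by limma). Together Psmb8, Psmb9 and Psmb10 amounted to 2.75 ± 0.601% (SD, n = 12) of the level of Psmb5, Psmb6 and Psmb7 in the contralateral muscles, with a range of 1.97% to 3.57%. The share was 4.87%, 5.12% and 4.43% at 10 days, above every contralateral muscle, and 3.06%, 4.86% and 4.36% at 2 days, with rat 1 inside the range. It was 3.43 ± 0.386% at 20 days and 3.00 ± 0.509% at 30 days (SD, n = 3 each). In no muscle did it pass 5.12%.

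The members of the triplet followed different courses, given here as values without a test of the ratio. Psmb9 stood at 22.8%, 19.9% and 15.5% of Psmb6 at 10 days, against 3.15% to 12.02% in the contralateral muscles, and at 5.40 ± 1.33% (SD, n = 3) at 30 days. Psmb8 stood at 3.25 ± 0.212% of Psmb5 at 10 days against 1.60 ± 0.637%, and Psmb10 at 4.08 ± 0.599% of Psmb7 at 2 days against 2.72 ± 0.749% (SD, n = 3 and 12). Psmb8 read 2.44, 2.60 and 1.00 TPM at 20 days, against 3.30, 2.55 and 1.53 TPM in the right legs of the same rats. At 30 days it read 2.00, 3.56 and 2.87 TPM (log2 difference 0.48, adjusted p = 0.114 by limma), while Psmb9 lay below its contralateral median in all 3 rats.

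**Figure D5:**
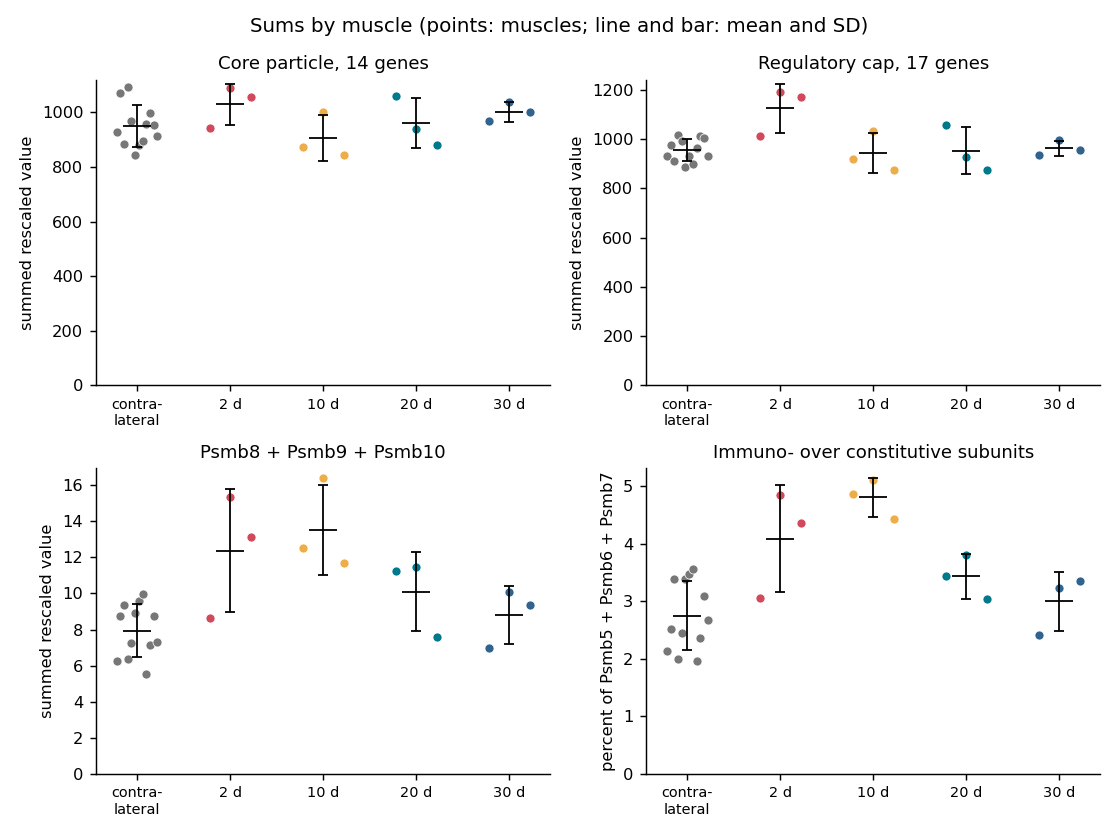
Summed level in rescaled TPM of the 14 core genes, the 17 cap genes and Psmb8, Psmb9 and Psmb10, and the sum of the last 3 as a percent of Psmb5, Psmb6 and Psmb7, for each muscle by group with the mean and SD. The cap sum is highest at 2 days, and the immunoproteasome percent at 10 days, where all 3 muscles lie above 3.57%.

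Summed over its genes, the core stood at 950 ± 76.1 TPM in the contralateral muscles and 1029 ± 76.6 TPM at 2 days, and the cap at 955 ± 45.1 TPM and 1125 ± 98.4 TPM (SD, n = 12 and 3). The cap sums of the 3 muscles at 2 days were 1012, 1193 and 1170.5 TPM, the first of them within the contralateral range of 889 to 1018 TPM. Psmd11 made up 3.05% to 3.76% of the cap sum in the contralateral muscles, 7.51 ± 2.25% at 2 days, 4.35 ± 0.527% at 10 days and 3.47 ± 0.213% at 30 days. These shares are given without a test. At 10, 20 and 30 days the core summed to 906.5 ± 83.6, 960 ± 92.0 and 1002 ± 35.3 TPM and the cap to 942 ± 81.5, 953 ± 96.0 and 964 ± 31.1 TPM, within or near the spread of the contralateral muscles.

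Among 23 partners and regulators of the proteasome, all of them tested, 6 were higher and 1 lower at 2 days, 2 and 2 at 10 days, 3 and 3 at 20 days, and 3 and 1 at 30 days by limma. The shares higher were 26.1%, 8.70%, 13.04% and 13.04% in that order, against 15.4%, 15.6%, 11.7% and 11.1% of all genes tested, so the 10-day count of higher genes lay below the background. Of all genes tested 13.5%, 13.3%, 9.64% and 9.46% were lower in the same order. Zfand2a, which encodes a zinc finger protein that binds the proteasome under proteotoxic stress, rose at all 4 days. It read 19.4, 22.2 and 12.4 TPM at 2 days, 14.3, 12.01 and 13.5 TPM at 10 days and 5.33 TPM or more afterwards, against 2.31 to 4.37 TPM in the contralateral muscles. Its log2 difference fell from 2.05 at 2 days (adjusted p = 4.29e-10 by limma) to 0.73 at 30 days (adjusted p = 0.00105), and the direct contrast of 30 against 2 days was -1.31 (adjusted p = 8.32e-05).

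Other partners moved less. Txnl1, a thioredoxin-like protein bound to the cap, rose at 2 days (log2 difference 0.55, adjusted p = 7.19e-05 by limma), and so did Adrm1, a ubiquitin receptor of the cap that the naming rule does not cover (0.38, adjusted p = 0.0228, and 0.130 under the replicate block). Nfe2l2, the transcription factor that binds antioxidant response elements, was higher at all 4 days, by 0.24 (adjusted p = 0.0475 by limma), 0.34, 0.54 and 0.59, and with the block not at 2 days (adjusted p = 0.218). Nfe2l1, the factor that drives proteasome genes when the proteasome is inhibited, did not pass at any day (lowest adjusted p = 0.0812 by limma, at 10 days, and 0.0354 there under the block). Ecpas, a scaffold that binds proteasomes, was lower at 2, 10 and 20 days (-0.41, -0.63 and -0.50) but not at 30 days (-0.31, adjusted p = 0.0559 by limma), while under the block it was lower at 10, 20 and 30 days (-0.48 at 30 days, adjusted p = 0.0228) and not at 2 days (adjusted p = 0.208). Pomp, which matures the core, did not pass at any day.

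Of 14 interferon and antigen presentation genes, 11 reached the filter in the contralateral muscles alone, and 2, 6, 4 and 3 of these were higher at 2, 10, 20 and 30 days by limma, with 0 lower, where 15.4%, 15.6%, 11.7% and 11.1% of all genes tested were higher. Irf8 and Cxcl10 reached it through trained muscles and are left out of this count, a choice made after the values were seen. Cd74, the chaperone of class II antigen presentation, rose by log2 differences of 1.12, 1.14, 1.11 and 1.20 at the 4 days. Irf8, a transcription factor of myeloid cells, read at most 0.69 TPM in the contralateral muscles and 0.655 to 2.21 TPM in the trained ones. At 10 days, when Psmb9 and Psmb8 passed, so did, among others, the peptide transporter Tap1 (0.51) and the class I light chain B2m (0.50). Not all listed genes rose. Irf9 read 2.77, 3.38 and 3.46 TPM at 10 days, below the 3.59, 4.24 and 4.86 TPM of the right legs of the same rats, without passing as lower. The adjusted p of Tap1 was 0.113 under the replicate block by limma.

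Leukocyte markers, as a sum, lay above the contralateral range at all 4 days. Of the 12 listed markers, 9 are in the table and 5 were tested. Of these, 4 reached the filter in the contralateral muscles alone. Adgre1 reached it through trained muscles and is left out of the count. All 4 were higher at each of 2, 10, 20 and 30 days by limma. The shares higher over all genes tested were 15.4%, 15.6%, 11.7% and 11.1%. The summed level of the 9 was 6.42 to 14.5 TPM in the contralateral muscles, 19.8 to 42.0 TPM at 2 days, 19.5 to 43.5 TPM at 10 days, 24.6 to 31.5 TPM at 20 days and 23.5 to 31.7 TPM at 30 days. The macrophage genes C1qa and C1qb made up most of it, and the B cell marker Cd79a was at 0 in 7 of 12 trained and 6 of 12 contralateral muscles. Psmb9 read under its contralateral median at 30 days, and whether its level followed the leukocyte sum was not tested. Fibroblast markers summed to 47.6 to 157 TPM in the contralateral muscles and to 139 to 228, 217 to 466, 289 to 300 and 197 to 225 TPM at the 4 days. Endothelial markers summed to 20.9 to 33.8 TPM in the contralateral muscles and to 16.3 to 22.4, 24.5 to 48.2, 37.7 to 39.1 and 31.6 to 40.2 TPM, and 6 muscle fibre markers to 65389 to 79050 TPM and, over the 12 trained muscles, to 51195 to 85769 TPM. The fibre sum hides shifts of single markers. Pvalb read 1913.5 to 2947 TPM in the contralateral muscles, 977 to 1471 TPM at 2 days and 124 to 379 TPM at 30 days. Mb read 5363 to 8937 TPM in the contralateral muscles, 3962 to 4529 TPM at 2 days and 8052 to 12603 TPM at 10 days. The part of these cell types in the results was not tested, and in whole muscle fewer cells of a type and less RNA per cell cannot be told apart.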

How the data were processed

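RNA-seq libraries of 24 tibialis anterior muscles were compared. Per the sources used here, the authors aligned reads with STAR to rn6 in Partek Flow and normalised with DESeq2. The deposited transcript table is called normalised counts, but every muscle sums to 634431, so its values were treated as TPM, made by the authors, of unknown depth. An equal total does not by itself show that values were divided by transcript length. The deposited gene-level table, a normalised signal of 4635 genes, served as an alternative. Another table holds the authors' p-values and fold changes and was not used.

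TPM values were divided by median-of-ratios factors (0.778 to 1.14, from 16230 transcripts above 0 in all muscles) and summed per gene symbol. The 62 symbols with more than 1 gene ID were summed too. Genes of at least 1 in at least 3 muscles were kept, and limma 3.58.1 (R 4.3.3) was run on log2(value + 1), with 5 groups (contralateral, 4 trained), with two-sided tests and Benjamini-Hochberg adjustment over 11196 genes and a threshold of 0.05. The contralateral muscles of 4 days were compared by limma's F test. The table gave no counts, so no count model was fitted.

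Each trained and contralateral muscle share a rat. Deviations from the group means correlated with a median r of 0.174 within rats (0.0277 to 0.343, 8 of 12 pairs above 0.1) and -0.00964 between rats, and a fit with rat as a block was the paired alternative. The scripts were tested on simulated data, drawn without an effect of the rat. A log2 change of 0.5 at 2 days was recovered in 57.5% of changed genes by the 5-group fit and in 17.2% by the block. A call lost under the block therefore does not by itself show that a small change was absent. The 0 identical pairs among 276 showed no repeated library.

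Named genes were every member past the threshold by count, the largest changes with values, Psmb5 to Psmb10, members past a direct contrast, and the highest and lowest of each group, and up to 4 examples of other lists. Psmd9, Psmf1, Psmg2 and some list genes were named beyond this rule after their values were seen. The members and lists were chosen with earlier results of these data known.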

Additional observations from a re-analysis of the deposited data

Results flagged for a closer look

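Trained muscles of different days differed directly in 9 contrasts of proteasome genes (limma, adjusted over 11196 genes). Psmd11 was lower at 10 than at 2 days by a log2 difference of -0.99. From 2 to 30 days the differences were -1.26 for Psmd11, -0.73 for Psmd8, -0.69 for Psmb9, -0.65 for Psmd5, -0.54 for Psmd3, -0.50 for Psmd4, -0.39 for Psmc4 and -0.33 for Psme3. With rat as a block, which compares differences from the own right leg, Psmd11 alone passed from 2 to 30 days (-1.42). Outlying muscles were not looked for by a test, since the groups hold 3 or 12 muscles.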

How the results depend on the processing

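Psmd11, Psmd5 and Psmd8 at 2 days, Psmb9 at 10 days, and Psmd11, Psmd3 and Psmd8 from 2 to 30 days kept direction and call under every left-out muscle. A pseudocount of 0.1 and no filter changed no direction and no call among the 24 called contrasts of single genes. With the main transcript of each gene in place of its sum, Psmb8 at 10 days alone lost its call. The counts of the 48 genes past the threshold moved more, for causes that were not tested. At 2 days 10 became 19 on values as deposited (25.4% of all genes passed), 4 with the right legs of the same day alone (19.6%), 5 at an adjusted p under 0.01 and 23 of 38 in the gene-level table (29%). At 10 days 4 became 8 (24.7%), 1 (17.9%), 1 and 7 (22.8%) in the same order. At 20 days 0 became 1 (Psme4) with a mean of at least 10 and 1 with an intensity trend. At 30 days 1 became 15 on deposited values, 0 at 0.01 and 28 in the gene-level table, where Psmb1 read -0.081. For 10 against 2 days 1 became 2 with a mean of at least 10, and for 30 against 2 days 8 became 28 on deposited values (29.2% of all genes passed, 27% lower), 3 at 0.01 and 37 in the gene-level table (67.1%, 66% lower). On deposited values the core summed to 1114 TPM at 2 days and to 857 TPM at 30 days, and the cap to 824 TPM at 30 days.

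With rat as a block (the paired fit), the counts were 6 at 2 days, 2 at 10 days, 3 at 30 days, 0 for 10 against 2 days and 1 for 30 against 2 days, and with the block on deposited values 5 at 2 days, 0 at 30 days, 0 for 10 against 2 days and 1 for 30 against 2 days. The block moved no other count of calls past 1.5 times.

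Leaving out 1 muscle at a time gave 3 to 15 genes at 2 days, 2 to 6 at 10 days, 0 to 2 at 20 days, 0 to 2 at 30 days, 0 to 5 for 10 against 2 days and 3 to 10 for 30 against 2 days. With 3 trained muscles a day and unknown depth, small differences could not be settled.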
